A study of Mus musculus with 17 samples.

Results

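The RNA of 9 genes was followed through all 17 libraries of a study of 5 mouse embryonic stem (ES) cell lines, because it had stood apart in the line with a FoxC1 transgene. The genes are Pdx1, Ptgs1, Tgm3, Enpp2, Pth1r, Grk3, Ank3, S100a1 and S100a13, 9 of the 53588 gene symbols in the deposited tables. They were picked for their iFoxC1 values in these same libraries, so the differences between iFoxC1 and the other lines are given as descriptions without a test. For each gene the question was whether the difference lay at 24 h, in the iFoxC1 library of 0 h, or at both times.

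Each line comes from MC1 ES cells of strain 129S6/SvEvTac and carries, at the Rosa26 locus, a puromycin resistance gene and the open reading frame of 1 forkhead factor, tagged at its C terminus with His6-FLAG, which doxycycline (Dox) keeps repressed. The iFoxC1 line had 2 libraries at 24 h and 1 at 0 h. The other lines were iFoxA1 (3 libraries at 24 h and 2 at 0 h) and iFoxG1, iFoxL2 and iFoxP3 (2 libraries at 24 h and 1 at 0 h in each), which gave 9 libraries at 24 h and 5 at 0 h. The 0 h cells were in ES medium with Dox, serum and leukemia inhibitory factor. The 24 h cells had been washed free of Dox and moved to a differentiation medium, so loss of Dox, onset of the transgene and the change of medium coincide and cannot be told apart within a line. Every line carries a transgene, and no line without one was among the samples, so "the other lines" are cells that express another forkhead factor at 24 h. Strand-specific libraries were made from polyadenylated RNA, and the labels do not say whether a line is 1 clone.

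Forkhead proteins bind DNA through a winged-helix domain and recognise sites built around TGTTTAC and close relatives. FoxC1 is known for its roles in mesenchyme, eye, skeleton and blood vessels. The 9 genes share no pathway. Pdx1 encodes a homeodomain transcription factor of pancreas and duodenum; Ptgs1, Tgm3 and Enpp2 encode enzymes; Pth1r and Grk3 act in G protein-coupled receptor signalling; Ank3 links membrane proteins to the spectrin skeleton; S100a1 and S100a13 are small calcium-binding proteins.

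Totals ran from 17.7 to 37.2 M estimated counts per library. At 24 h, 5 libraries were deeper (32.9 M or more; replicate 2 of iFoxC1, iFoxG1, iFoxL2 and iFoxP3, and replicate 3 of iFoxA1), while all others, including every 0 h library, held at most 22.2 M. Foxc1 itself, which the transgene supplies, stood at 274.4 and 288.8 CPM (counts scaled to a common library total, with trimmed-mean factors) in iFoxC1 at 24 h. In the other lines at 24 h it reached at most 0.752 CPM. At 0 h it stood at 1.94 CPM (41.0 estimated counts) in iFoxC1, against 0 to 0.162 CPM (at most 3 counts) in the other lines. Foxc1 RNA was thus above that of every other line while Dox was still present. Its part in the 0 h results below was not tested. The 6 ES cell markers checked (Pou5f1, Sox2, Nanog, Zfp42, Esrrb and Klf4) were all present, summing to between 2076 and 2128 CPM in iFoxC1 at 24 h and between 1176 and 3276 CPM in the other lines at 24 h. The single iFoxC1 0 h library fell outside the range of the other lines at 0 h in most marker lists, in some of them by a small margin. Its ES marker sum of 3408 CPM, beside 3201 to 3394 CPM, was made up otherwise, with Nanog at 1313 CPM (against 578.6 to 655.8 CPM), Zfp42 at 471.6 CPM (against 643.1 to 915.3 CPM) and Pou5f1 at 881.7 CPM (against 1064 to 1192 CPM). Its 4 epiblast markers summed to 106.9 CPM, below the 269.7 to 321.6 CPM of the other lines at 0 h, mainly through the DNA methyltransferase gene Dnmt3b (91.8 CPM, against 259.9 to 304.1 CPM). Its trophoblast marker sum lay above the others (67.2 CPM, against 38.7 to 57.5 CPM), and its neural (60.8 CPM, against 78.7 to 105.8 CPM) and fibroblast (5.78 CPM, against 7.37 to 27.8 CPM) sums lay below them. Most of that trophoblast sum was Tfap2c (58.2 CPM, against 33.0 to 49.9 CPM), while Hand1 was at 0.0474 CPM. The sum of mesoderm markers in that library was also below the others (1.375 CPM, against 1.84 to 3.45 CPM). Those of endoderm (2.09 CPM, against 2.33 to 41.6 CPM) and keratinocyte markers (0.190 CPM, against 0.199 to 0.757 CPM) were only just below the lowest of the others. The endothelium sum lay within their range. In iFoxC1 at 24 h the 5 trophoblast markers summed to 96.2 and 117.9 CPM, above the range of 13.3 to 73.2 CPM in the other lines, with Hand1 at 34.8 to 41.8 CPM in iFoxC1, against 1.67 to 14.3 CPM in the others. Gata3 was at 6.69 to 9.11 CPM in iFoxC1, against 0.645 to 4.78 CPM. Tfap2c, the largest part of the sum in iFoxC1, was at 41.4 to 52.0 CPM there, against 2.79 to 37.7 CPM. Eomes lay within the range of the others (12.6 to 14.8 CPM in iFoxC1, against 4.02 to 35.7 CPM). Elf5 stayed at or below 0.744 CPM in iFoxC1, and all 5 markers had counts. The part of these marker differences in the results below was not tested.

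A gene was said to differ at a time where iFoxC1 and the mean of the 4 other lines were at least 1 apart on the log2 scale and no iFoxC1 library overlapped any library of the other lines. By this rule 3 genes differed at 24 h alone (Pdx1 higher, Grk3 and Ank3 lower), 5 at 0 h alone (Tgm3, Enpp2 and Pth1r lower, S100a1 and S100a13 higher) and 1 at both times (Ptgs1, higher at 24 h and lower at 0 h). Over the 19796 genes tested, 2.33% met the rule as higher and 1.79% as lower at 24 h, and 7.92% as higher and 8.13% as lower at 0 h, where a single iFoxC1 library has to clear only 5 others. The members were picked on these values, so nothing is read from their shares.

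**Figure D1:**
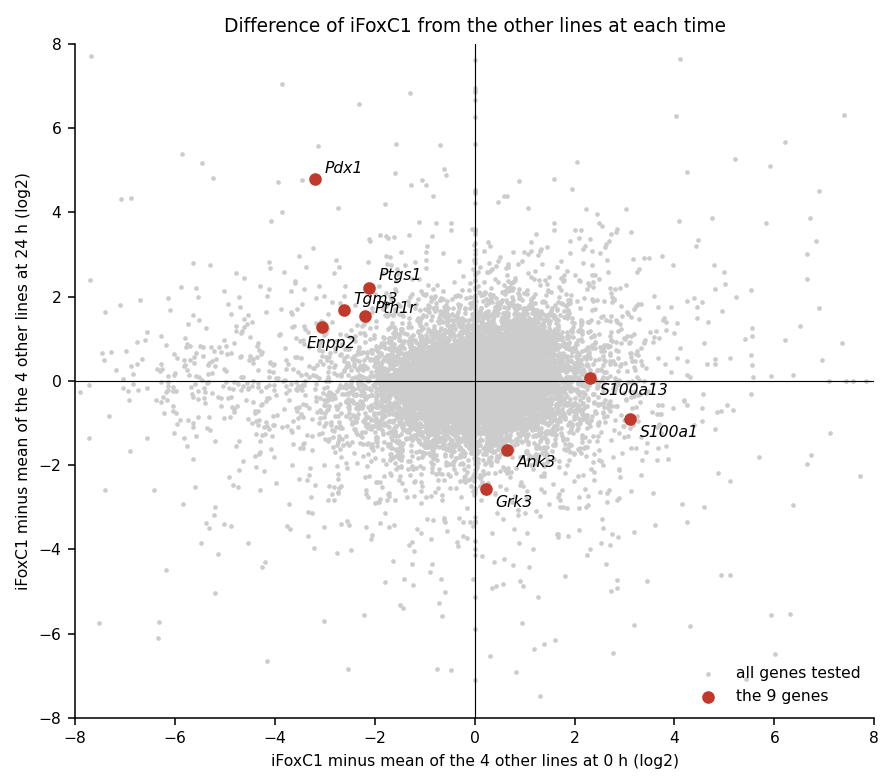
Difference of iFoxC1 from the mean of the 4 other lines at 24 h (vertical, log2) against the same difference at 0 h (horizontal, log2), with the 9 genes in red and all genes tested in grey; 26 genes beyond 8 on either axis are not drawn. Pdx1 (4.80) sits highest at 24 h, Grk3 (-2.57) and Ank3 (-1.64) lie low near the vertical axis, S100a13 (2.31) lies to the right on the horizontal one and S100a1 (3.12) to the right just below it, and Ptgs1, Tgm3, Pth1r and Enpp2 lie to the upper left. Pdx1's place on the horizontal axis rests on 0 or 1 count per library.

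Pdx1 (ENSMUSG00000029644.7, chromosome 5, 147269959 to 147275848, plus strand, GRCm38, the assembly also called mm10) encodes the homeodomain factor that specifies pancreas and activates insulin transcription in beta cells. Its RNA stood at 4.96 and 5.96 CPM in iFoxC1 at 24 h (99.9 and 202 estimated counts). In the 9 other 24 h libraries the lowest value was 0.0504 CPM, the median 0.145 and the highest 0.559. All but the iFoxC1 24 h libraries were thus near the limit of detection, and the groups did not overlap. At 0 h there were 0 counts in iFoxC1, and the other lines had 1, 0, 1, 1 and 1 counts in iFoxA1 replicates 1 and 2, iFoxG1, iFoxL2 and iFoxP3. The 24 h mean of iFoxC1 was at least 38.4-fold higher than a floor of 3 counts in its own 0 h library, which amounts to 0.142 CPM. Relative to the 4 other lines at 24 h the log2 difference was 4.80 ± 0.61 (SE). The trophoblast marker sum given above was also highest in these same iFoxC1 libraries, and its part in the Pdx1 level was not tested. In these bulk samples, a rise in a few cells and a smaller rise in all cells cannot be told apart.

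The bases just before the annotated Pdx1 start were taken from RefSeq's promoter window (GRCm38.p6, plus strand, chr5:147269847-147269958) and are shown because this is the gene with the widest difference at 24 h. Capitals mark CG dinucleotides, the sites of DNA methylation.
Pdx1: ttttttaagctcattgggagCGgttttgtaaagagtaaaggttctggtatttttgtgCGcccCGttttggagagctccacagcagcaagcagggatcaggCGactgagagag
The full window, 250 bases before to 50 after the RefSeq start, held 11 CG, against a median of 7 over 32851 such windows.

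Genes around Pdx1 were also read. The antisense transcript Plut, which overlaps the gene on the minus strand, ran at 0.347 to 0.413 CPM in iFoxC1 at 24 h and at 0 to 0.161 CPM in the other lines. The next gene downstream, Gm27033, had at most 4 counts in any library. Cdx2, an intestinal and trophoblast homeobox gene, lies 24957 bases beyond the end of Pdx1 on the minus strand (chromosome 5, 147300805 to 147307270). In a list of pancreas and duodenum factors and markers that holds it, 20 of 28 genes were expressed enough to be tested, 2 were higher in iFoxC1 than in the other lines at 24 h and 0 were lower, with a median log2 difference of -0.34 beside 0.00447 over all genes. Over all genes tested, 3.69% passed in this comparison, 2.41% as higher and 1.28% as lower. The first of the pair was Gata6, a zinc finger factor of endoderm (5.01 and 4.66 CPM in iFoxC1, log2 difference 1.58 ± 0.20, edgeR adjusted p = 0.00242, but 0.0545 without iFoxC1 24 h replicate 2). Its 24 h level was nevertheless highest in iFoxA1, where it averaged 21.5 ± 5.18 CPM (SD, n = 3), and reached at most 1.27 CPM in the remaining lines. Cdx2 was the second (4.61 and 4.69 CPM in iFoxC1, 4.29 ± 2.47 CPM in iFoxA1 and at most 0.712 CPM in the remaining lines), with a log2 difference of 2.82 ± 0.62 and adjusted p = 0.0398. Its call passed in 7 of the 17 fits that left out 1 library each, with adjusted p between 0.00282 and 0.311, the highest without iFoxC1 24 h replicate 2. It was lost without either 24 h library of iFoxC1, iFoxG1 or iFoxP3, either iFoxA1 0 h library, or iFoxA1 24 h replicate 1 or 2. The endocrine factor Neurog3 missed the threshold (log2 difference -1.36, adjusted p = 0.0827). DESeq2 called 4 of the list at 24 h, Gata4 among them (0.248 to 0.678 CPM in iFoxC1, against 0.201 to 10.4 CPM in the other lines). At 0 h 0 of the 20 passed by edgeR or DESeq2, and 3 had an unadjusted edgeR p under 0.05.

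Among the enzymes, Ptgs1 (ENSMUSG00000047250.13, chromosome 2, 36230426 to 36252272, plus strand) encodes cyclooxygenase-1, which makes the prostaglandin precursor from arachidonic acid. It stood at 4.31 and 5.78 CPM in iFoxC1 at 24 h, against a lowest, median and highest value of 0.591, 0.967 and 1.69 CPM in the other lines. At 0 h it stood at 0.616 CPM in iFoxC1 (13 counts), against 5.02 and 4.74 CPM in iFoxA1, 3.49 in iFoxG1, 1.51 in iFoxL2 and 2.03 in iFoxP3. Ptgs1 was thus the highest of all lines in iFoxC1 at 24 h and the lowest in iFoxC1 at 0 h, with no overlap at either time. The log2 difference from the 4 other lines was 2.21 ± 0.34 at 24 h and -2.12 ± 0.65 at 0 h. Within iFoxC1 the 24 h mean was 8.19 times the 0 h value.

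Tgm3 (ENSMUSG00000027401.9, chromosome 2, 130012349 to 130050399, plus strand), the epidermal transglutaminase that cross-links proteins of the cornified envelope and hair, had a 24 h level of 4.96 and 6.16 CPM in iFoxC1. The other lines ran at 24 h from 0.967 through a median of 1.42 to 5.75 CPM, and the 3 highest of them were the iFoxA1 libraries with 4.76, 5.75 and 3.70 CPM. The iFoxC1 libraries therefore overlapped those of iFoxA1 and stood above those of iFoxG1, iFoxL2 and iFoxP3. At 0 h the gene had 0.759 CPM in iFoxC1 (16.1 estimated counts), against 6.51 and 6.05 CPM in iFoxA1, 6.06 in iFoxG1, 2.92 in iFoxL2 and 4.42 in iFoxP3. The place of its difference was the iFoxC1 0 h library, which was lower than every other (log2 difference -2.63 ± 0.39, beside 1.69 ± 0.20 at 24 h).

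In both Ptgs1 and Tgm3, every 24 h library stood above 0 h in iFoxC1 and below 0 h in each of the 4 other lines. Of all genes tested, 2.09% had this arrangement, and 1.5% had its reverse. The gap between the change in iFoxC1 and the mean change in the others was 4.33 on the log2 scale for Ptgs1 and 4.32 for Tgm3. Part of that gap is the 0 h difference given above (-2.12 for Ptgs1 and -2.63 for Tgm3), which rests on 1 iFoxC1 library. Over all genes tested, 1.08% passed for this gap, 0.672% as higher and 0.404% as lower, and nothing is read from that for genes chosen by it. The bases before their starts (RefSeq, GRCm38.p6, plus strand, chr2:36230176-36230425 and chr2:130012090-130012339) are shown side by side for that reason, with CG in capitals.
Ptgs1: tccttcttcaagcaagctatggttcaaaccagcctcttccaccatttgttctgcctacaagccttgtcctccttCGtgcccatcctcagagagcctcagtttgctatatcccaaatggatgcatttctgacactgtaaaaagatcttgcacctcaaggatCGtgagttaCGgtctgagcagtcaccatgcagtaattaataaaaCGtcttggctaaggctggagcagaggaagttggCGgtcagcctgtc
Tgm3: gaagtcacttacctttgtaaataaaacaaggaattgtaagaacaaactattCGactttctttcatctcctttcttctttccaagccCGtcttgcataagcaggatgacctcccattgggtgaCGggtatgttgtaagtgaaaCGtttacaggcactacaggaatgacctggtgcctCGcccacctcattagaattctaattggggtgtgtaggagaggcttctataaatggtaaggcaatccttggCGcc
Their 300-base windows held 6 CG (Ptgs1) and 7 CG (Tgm3), close to the median of 7.

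In the list of prostanoid enzymes, transporters and receptors, 16 of 20 genes were tested, 2 were higher in iFoxC1 at 24 h and 0 lower, with a median log2 difference of 0.03. Ptges, the inducible prostaglandin E synthase that acts on the product of cyclooxygenase, had 25.3 and 28.2 CPM in iFoxC1 at 24 h, against 2.87 to 23.9 CPM in the other lines (log2 difference 1.57 ± 0.15, adjusted p = 0.000812). Its 0 h level was 38.5 CPM in iFoxC1, against 8.74 to 22.1 CPM in the other lines (log2 difference 1.71 ± 0.21, edgeR adjusted p = 0.00656), a time at which Ptgs1 was low in iFoxC1. Here and in every other 0 h comparison iFoxC1 is 1 library, so the SE and p come from the spread of the replicated groups and assume that this library varies like them. Of all genes tested, 1.76% passed at 0 h, 0.879% as higher and 0.884% as lower. The synthase gene Ptges2 was the other call (28.3 and 28.4 CPM in iFoxC1, against 12.2 to 21.9 CPM; log2 difference 0.72 ± 0.16, adjusted p = 0.044), which passed in 6 of 17 fits without 1 library, with adjusted p from 0.00468 to 0.41 (the highest without iFoxC1 24 h replicate 2). It was lost without either 24 h library of iFoxC1, iFoxG1 or iFoxP3, without iFoxA1 24 h replicate 1, and without any 0 h library of iFoxA1, iFoxG1 or iFoxL2. It was lost too with DESeq2's size factors (0.0593) and with no filter on low counts (0.0596). The list's next genes were the prostaglandin transporter gene Slco2a1 (0.70, adjusted p = 0.169) and the phospholipase gene Pla2g4a (-1.64, adjusted p = 0.214). Of the transglutaminase family, 3 of 8 genes were tested and 0 passed at either time by edgeR, with 1 at 24 h and 2 at 0 h under an unadjusted p of 0.05. DESeq2 called 0 at 24 h and 2 at 0 h, Tgm1 (21.9 CPM in iFoxC1, against 37.3 to 72.2 CPM) and Tgm2 (34.0 CPM, against 8.71 to 15.2 CPM), which moved in opposite directions.

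Enpp2 (ENSMUSG00000022425.16, chromosome 15, 54838901 to 54952892, minus strand) encodes autotaxin, the secreted lysophospholipase D that produces lysophosphatidic acid. At 24 h it had 53.8 and 49.1 CPM in iFoxC1, against a lowest, median and highest value of 10.2, 16.3 and 69.4 CPM in the other lines. The iFoxL2 libraries, at 69.4 and 44.1 CPM, spanned the iFoxC1 values, and the remaining lines lay below both. At 0 h the iFoxC1 library held 1 count (0.0474 CPM), against 0.144 and 0.145 CPM in iFoxA1 (3 counts each), 0.462 in iFoxG1, 0.703 in iFoxL2 and 0.745 in iFoxP3 (9, 13 and 15 counts). Enpp2 was low at 0 h and high at 24 h in all 5 lines, and what set iFoxC1 apart by the rule was its 0 h library (log2 difference -3.06 ± 0.69, beside 1.29 ± 0.19 at 24 h). The 24 h to 0 h ratio in iFoxC1 was 1086, with a 95% exact counting interval of 195 to 42889 that covers only the single 0 h count.

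The receptors for lysophosphatidic acid, its phosphatases and the other Enpp genes formed a list of 16, of which 15 were tested. At 24 h 2 were higher in iFoxC1 and 0 lower, with a median log2 difference of -0.04. The receptor gene Lpar5 had 12.9 and 11.8 CPM in iFoxC1, against 3.05 to 4.51 CPM in the other lines (log2 difference 1.72 ± 0.17, adjusted p = 0.000812), and passed in all 17 fits without 1 library. The receptor gene Lpar2 had 67.0 and 70.7 CPM in iFoxC1, against 17.8 to 70.7 CPM in the other lines (0.99 ± 0.21, adjusted p = 0.0291), and passed in 7 of those 17 fits, with adjusted p from 0.00262 to 0.35 (the highest without iFoxC1 24 h replicate 2). It was lost without the same libraries as Cdx2. Lpar4 (-1.71, adjusted p = 0.0789) and the phosphatase gene Plpp1 (0.30, adjusted p = 0.578) missed the threshold by edgeR, while DESeq2 called 3 genes at 24 h, Lpar4 as well as Lpar2 and Lpar5. At 0 h 0 of the 15 passed by edgeR, while 4 had an unadjusted p under 0.05 and DESeq2 called 1. That was Lpar5, at 15.2 CPM in iFoxC1, against 6.25 to 9.71 CPM (log2 difference 1.04, adjusted p = 0.0711; DESeq2, the replicate block, the depth-set term and leaving out the deeper libraries each gave it an adjusted p under 0.05).

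**Figure D2:**
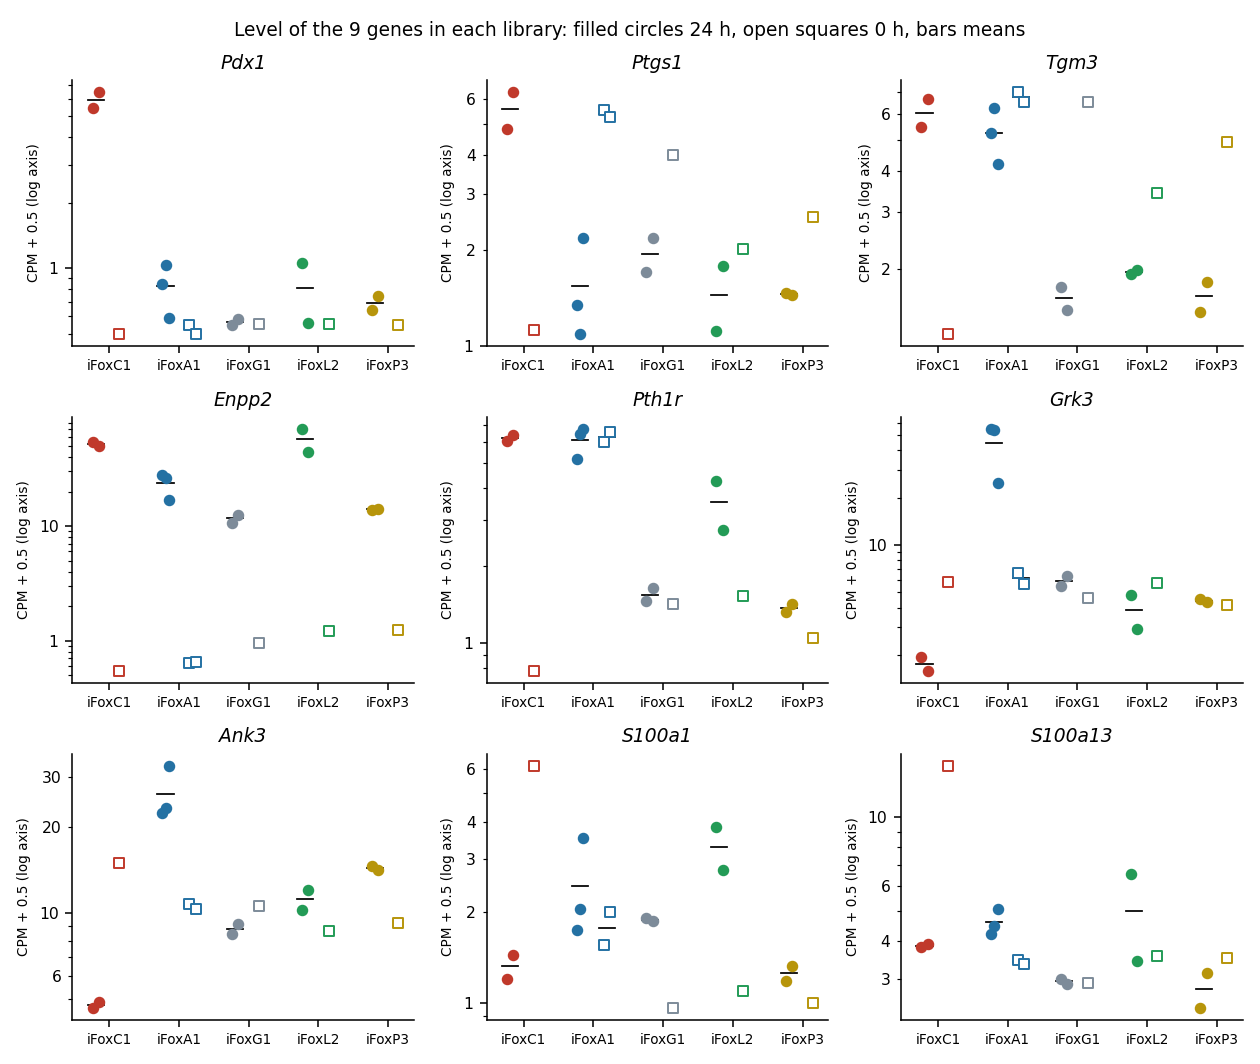
Level of each of the 9 genes in every library, as CPM plus 0.5 on a log axis, with filled circles for 24 h and open squares for 0 h, iFoxC1 at the left of each panel and bars for means of 2 or 3 libraries. Pdx1 is high only in the 2 iFoxC1 24 h libraries, Grk3 and Ank3 are lowest there, S100a1 and S100a13 are highest in the iFoxC1 0 h library, and for Ptgs1, Tgm3, Enpp2 and Pth1r that library is the lowest at 0 h.

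Pth1r (ENSMUSG00000032492.14, chromosome 9, 110722085 to 110747145, minus strand) is the receptor through which parathyroid hormone and its related peptide act on bone, kidney and growth plate. At 24 h it had 5.55 and 5.90 CPM in iFoxC1, against 0.822, 2.26 and 6.24 CPM as the lowest, median and highest value in the other lines. The 3 iFoxA1 libraries, at 4.66, 5.96 and 6.24 CPM, enclosed the iFoxC1 values, and the lines iFoxG1, iFoxL2 and iFoxP3 lay at or below 3.76 CPM. At 0 h it had 0.284 CPM in iFoxC1 (6 counts), against 5.50 and 6.10 CPM in iFoxA1, 0.925 in iFoxG1, 1.03 in iFoxL2 and 0.546 in iFoxP3. The difference by the rule lay in the iFoxC1 0 h library (log2 difference -2.19 ± 0.42, beside 1.53 ± 0.21 at 24 h). The nearest 0 h value, that of iFoxP3, was 11 counts beside 6 in iFoxC1, and in iFoxA1 the gene was about as high at 0 h as at 24 h.

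Pth1r has 3 groups of annotated starts, and the deposited tables apportion its counts among transcripts that begin at them. The upstream starts lie at 110747056 to 110747145, the middle ones at 110743648 to 110743686 and the downstream one at 110742719. The bases before each (RefSeq, GRCm38.p6, minus strand, chr9:110747146-110747395, chr9:110743687-110743936 and chr9:110742720-110742860) are shown, with CG in capitals, because the starts differ in base composition as well as in counts.
Pth1r upstream: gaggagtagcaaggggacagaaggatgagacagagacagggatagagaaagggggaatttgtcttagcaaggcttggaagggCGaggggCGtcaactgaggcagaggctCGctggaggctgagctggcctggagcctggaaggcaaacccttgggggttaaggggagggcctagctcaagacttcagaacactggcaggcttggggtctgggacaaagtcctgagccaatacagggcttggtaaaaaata
Pth1r middle: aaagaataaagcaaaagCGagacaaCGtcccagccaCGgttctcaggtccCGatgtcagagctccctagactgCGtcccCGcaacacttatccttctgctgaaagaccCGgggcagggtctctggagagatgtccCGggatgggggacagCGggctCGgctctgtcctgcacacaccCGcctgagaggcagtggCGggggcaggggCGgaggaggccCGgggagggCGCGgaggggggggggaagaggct
Pth1r downstream: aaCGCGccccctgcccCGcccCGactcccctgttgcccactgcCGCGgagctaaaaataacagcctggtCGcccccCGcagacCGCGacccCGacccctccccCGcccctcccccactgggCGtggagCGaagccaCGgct
The 300-base windows held 5 CG at the upstream start, 23 at the middle and 27 at the downstream one.

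In iFoxC1 at 24 h, the upstream start was assigned 0 of 112 counts in replicate 1 and 109.4 of 200 in replicate 2. In iFoxC1 at 0 h it was assigned 6 of 6. In no library of another line was it assigned more than 2 counts. The rest of the iFoxC1 24 h counts went to the downstream start, while most other libraries were assigned wholly or nearly so to the middle one. This division did not hold between replicates of 1 group: in iFoxA1 at 24 h, replicate 1 had 93.0 counts at the downstream start and 0 at the middle one, and replicate 2 had 0 and 111. Since the division was not stable between replicates, only the sum per gene was compared.

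**Figure D3:**
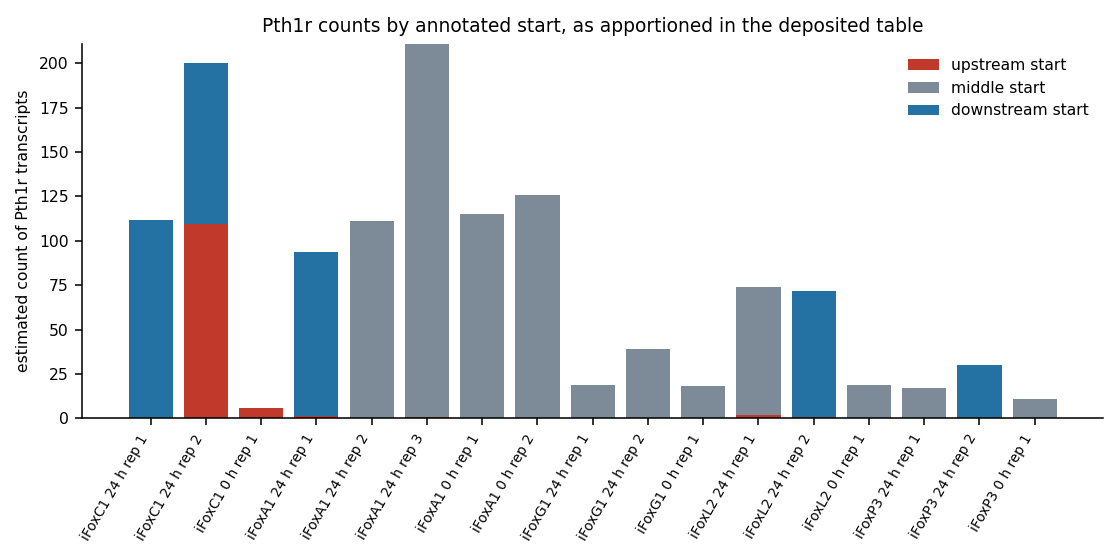
Estimated counts of Pth1r in each library, stacked by annotated start (upstream red, middle grey, downstream blue), with iFoxC1 at the left. Upstream counts reach 109.4 in iFoxC1 24 h replicate 2 and are 0 in replicate 1, and the middle and downstream starts trade places between replicates of iFoxA1, iFoxL2 and iFoxP3 at 24 h.

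The genes around Pth1r had another pattern. The muscle light chain gene Myl3, which overlaps it on the opposite strand, stayed at or below 0.721 CPM in every library, and Ccdc12 had 29.2 and 29.5 CPM in iFoxC1 at 24 h, against 33.4 to 44.7 CPM in the other lines, and 25.5 CPM in iFoxC1 at 0 h, against 33.3 to 43.0 CPM, so that it was lowest in iFoxC1 at both times. Of the 9 listed parathyroid hormone ligands, receptors and transducers, 5 were tested and 0 passed at either time by edgeR, with 1 at each time under an unadjusted p of 0.05. DESeq2 called 0 at 24 h and 1 at 0 h (Slc9a3r1, a scaffold that binds the receptor). The nearest by edgeR was Gna11, a G protein alpha subunit, with 72.8 CPM on average in iFoxC1, against 49.9 to 65.3 CPM (log2 difference 0.34 ± 0.10, adjusted p = 0.101).

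Grk3 (ENSMUSG00000042249.11, chromosome 5, 112910482 to 113015791, minus strand) encodes a kinase that phosphorylates activated G protein-coupled receptors and so helps to switch them off. At 24 h it had 1.44 and 1.09 CPM in iFoxC1 (29 and 37 counts), against 2.45, 4.98 and 53.9 CPM as the lowest, median and highest value in the other lines. The lowest was iFoxL2 replicate 2, and the 3 highest were the iFoxA1 libraries with 53.9, 53.3 and 24.2 CPM. At 0 h it had 5.36 CPM in iFoxC1, against 6.17 and 5.13 CPM in iFoxA1, 4.11 in iFoxG1, 5.25 in iFoxL2 and 3.67 in iFoxP3. The iFoxC1 value lay within the range of the others at 0 h, and at 24 h iFoxC1 stood below every other library while iFoxA1 stood far above the rest. The log2 difference of iFoxC1 from the 4 others was -2.57 ± 0.38 at 24 h and 0.22 ± 0.43 at 0 h, and the iFoxA1 libraries are included in that mean. Among the 7 of 8 receptor kinases and arrestins that were tested, 0 passed at either time by edgeR or DESeq2, with 1 at 24 h and 0 at 0 h under an unadjusted edgeR p of 0.05. The arrestin gene Arrb1 was nearest at 24 h (8.35 CPM on average in iFoxC1, against 4.27 to 27.1 CPM; log2 difference -0.89 ± 0.34, adjusted p = 0.227).

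Ank3 (ENSMUSG00000069601.14, chromosome 10, 69398773 to 70027438, plus strand) encodes ankyrin-G, which anchors ion channels and adhesion molecules to the spectrin skeleton at axon initial segments and epithelial lateral membranes. At 24 h it had 4.17 and 4.39 CPM in iFoxC1, against 7.96, 13.7 and 32.3 CPM as the lowest, median and highest value in the other lines. At 0 h it had 14.5 CPM in iFoxC1, against 10.3 and 9.87 CPM in iFoxA1, 10.1 in iFoxG1, 8.17 in iFoxL2 and 8.74 in iFoxP3. At 24 h iFoxC1 stood below all others without overlap, and at 0 h its library was above all others but by less than the rule asks (log2 difference 0.65 ± 0.22, beside -1.64 ± 0.18 at 24 h). The gene has 47 transcripts in the deposited tables, 18 of them with at least 15 counts over all libraries, and the largest held 32.0% of its counts, so only the sum is described.

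Ankyrins, spectrins and the membrane proteins they hold made up a list of 15 genes, all tested, of which 2 were higher and 2 lower in iFoxC1 at 24 h, with a median log2 difference of -0.24. The adhesion molecule neurofascin, Nfasc, a partner of ankyrin-G at axon initial segments, was lower (1.04 and 1.59 CPM in iFoxC1, against 1.88 to 10.2 CPM; log2 difference -1.63 ± 0.27, adjusted p = 0.0096). Its adjusted p was 0.148 without iFoxC1 24 h replicate 1 and 0.0647 without replicate 2. Sptbn4, the beta spectrin of axon initial segments, was higher at 24 h (70.7 and 66.2 CPM, against 33.4 to 57.2 CPM; 0.58 ± 0.10, adjusted p = 0.0104; 0.17 without iFoxC1 24 h replicate 1 and 0.165 without replicate 2). Sptan1 was higher too (1133 and 1194 CPM, against 722.1 to 1067 CPM; 0.50 ± 0.11, adjusted p = 0.042, passing in 5 of 17 fits). Its adjusted p was highest, at 0.48, without iFoxC1 24 h replicate 2, and the call was lost without the same libraries as Cdx2 and without the 0 h library of iFoxG1 or iFoxL2. It was lost too with no filter on low counts (0.172). DESeq2 called 5 of the list at 24 h, the adhesion gene Cdh1 in addition.

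S100a1 (ENSMUSG00000044080.9, chromosome 3, 90511034 to 90514392, minus strand), best known as a calcium sensor of heart muscle, and S100a13 (ENSMUSG00000042312.9, chromosome 3, 90514435 to 90524581, plus strand), known for its part in the non-classical release of fibroblast growth factor 1, lie head to head. Only 42 bases separate their annotated starts, and the 300-base windows around the RefSeq starts share 204 bases. The bases between the starts (RefSeq, GRCm38.p6, plus strand, chr3:90514393-90514434) are shown with CG in capitals, since the pair was high in the same library.
S100a1 to S100a13: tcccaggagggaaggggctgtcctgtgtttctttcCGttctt
At 24 h S100a1 had 0.694 and 0.944 CPM in iFoxC1, against 0.677, 1.41 and 3.35 CPM as the lowest, median and highest value in the other lines. At 0 h it had 5.64 CPM in iFoxC1 (119 counts), against 1.05 and 1.50 CPM in iFoxA1, 0.462 in iFoxG1, 0.595 in iFoxL2 and 0.496 in iFoxP3. S100a1 overlapped the other lines at 24 h and stood above all of them at 0 h.

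S100a13 followed the same order. At 24 h it had 3.32 and 3.39 CPM in iFoxC1, against 1.93, 2.95 and 6.05 CPM in the other lines. At 0 h it had 14.1 CPM in iFoxC1 (298 counts), against 2.97 and 2.86 CPM in iFoxA1, 2.41 in iFoxG1, 3.08 in iFoxL2 and 3.03 in iFoxP3. Both differences lay in the iFoxC1 0 h library, with log2 differences at 0 h of 3.12 ± 0.43 for S100a1 and 2.31 ± 0.31 for S100a13, beside -0.91 ± 0.38 and 0.07 ± 0.25 at 24 h. Neither rests on few counts, but both rest on 1 library, the one whose epiblast, neural and fibroblast marker sums lay below those of the others and whose trophoblast sum lay above them. The part of that in the levels was not tested. The ratio of S100a13 to S100a1 CPM was 2.50 in that library and ran from 1.31 to 6.10 over all 17. The genes on either side were not raised with them. Chtop had 209.6 CPM in iFoxC1 at 0 h, against 195.7 to 213.4 CPM in the other lines, and S100a14 had 0.332 CPM, against 0.162 to 0.387 CPM. Of the 14 other S100 genes listed, 6 were tested and 0 passed at either time by edgeR or DESeq2, and 0 had an unadjusted edgeR p under 0.05, with S100a10 at 51.4 ± 6.65 CPM in iFoxC1 at 24 h (SD, n = 2) and 22.1 to 71.2 CPM in the other lines.

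**Figure D4:**
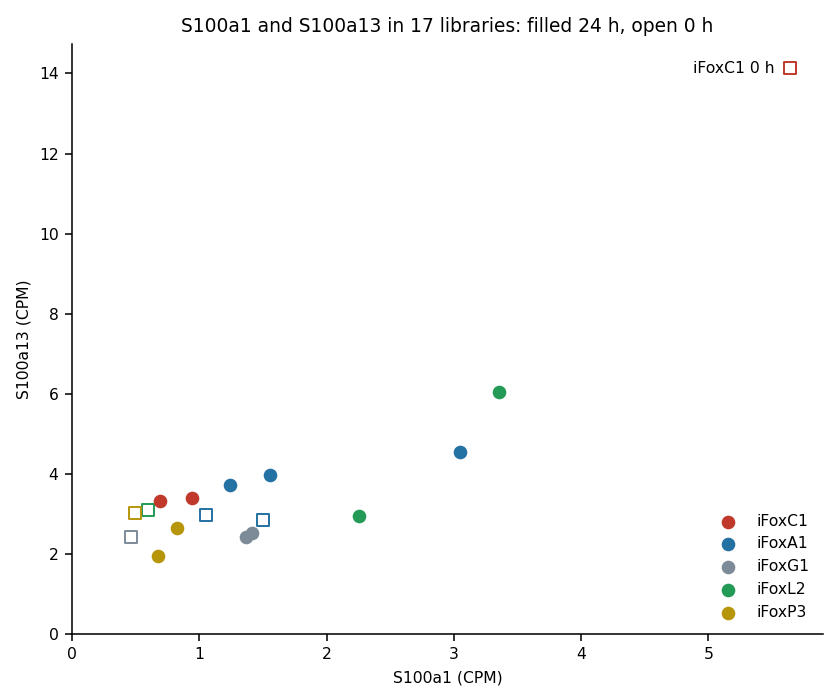
S100a13 (vertical, CPM) against S100a1 (horizontal, CPM) in the 17 libraries, filled for 24 h and open for 0 h, coloured by line. The iFoxC1 0 h library (5.64 and 14.1 CPM) stands apart from the other 16, the next highest of which is iFoxL2 24 h replicate 1 (3.35 and 6.05 CPM).

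On a scale that allows genes to be compared, TPM (abundance scaled by transcript length and library total), Enpp2 was the most abundant of the 9 in iFoxC1 at 24 h, at 24.6 and 21.6 TPM. S100a13 followed at 6.74 and 6.53 TPM, and the other 7 lay between 0.262 TPM (Grk3) and 3.30 TPM (Pth1r). In iFoxC1 at 0 h the order was another: S100a13 led at 27.7 TPM, S100a1 came next at 12.0 TPM and Ank3 at 5.71 TPM, Grk3 was at 1.17 TPM, and the remaining 5 were at or below 0.253 TPM. Foxc1 stood at 73.7 and 48.1 TPM in iFoxC1 at 24 h.

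No iFoxC1 library enters the contrast for the change in the 4 other lines, but the same libraries had been the other side of the comparison that chose the genes. That change is also a part of the difference of changes used in the choice. Its p-values for these genes are therefore given as a description and not as independent support. Of the 9 genes, 5 rose and 2 fell at 24 h relative to 0 h in the mean of these lines, with a median log2 change of 0.59 beside 0.04 over all genes. Over all genes tested, 33.6% passed, 18.8% higher and 14.8% lower. Enpp2 rose most (5.59 ± 0.23, adjusted p = 1.46e-06), by 5.17 in iFoxA1, 3.59 in iFoxG1, 5.54 in iFoxL2 and 3.49 in iFoxP3 on the scale of log2(CPM + 0.5), which understates changes of low values. It rose by 6.57 in iFoxC1 on the same scale. Tgm3 fell by 1.45 ± 0.16 (adjusted p = 0.000199) and Ptgs1 by 1.30 ± 0.28 (adjusted p = 0.0065), both lower in 4 of 4 lines. Ank3 rose by 0.53 ± 0.12 (adjusted p = 0.00871), though not in iFoxG1, where the change was -0.26. S100a1 rose by 1.25 ± 0.29 (adjusted p = 0.00901, but 0.0568 without the iFoxL2 0 h library).

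The other 4 genes lay near the threshold or missed it. Pth1r rose by 0.59 ± 0.18 (adjusted p = 0.0324), a call that passed in 9 of 17 fits without 1 library, with adjusted p from 0.00703 to 0.35, the highest without the iFoxL2 0 h library. It was lost too without either iFoxA1 0 h library, the iFoxP3 0 h library, iFoxC1 24 h replicate 1, or replicate 2 of iFoxA1, iFoxG1 or iFoxP3 at 24 h. It was also lost with no filter on low counts (0.118), with DESeq2 (0.0746), with the replicate block (0.066) and with a term for the deeper libraries (0.0527). Grk3 rose by 0.70 ± 0.24 (adjusted p = 0.0444), which passed in 5 of 17 such fits, with adjusted p from 0.00591 to 0.0884. It held only without the 0 h library of iFoxC1, iFoxL2 or iFoxP3, iFoxA1 24 h replicate 3 or iFoxL2 24 h replicate 2, and was lost with DESeq2's size factors (0.051). Its rise came from iFoxA1, where the change was 2.76, against 0.36 in iFoxG1, 0.09 in iFoxP3 and -0.61 in iFoxL2. Pdx1 (2.03 ± 0.80, adjusted p = 0.079) missed the threshold, on 0 to 11 counts per library, and passed without iFoxA1 24 h replicate 3 (0.0453), without iFoxL2 24 h replicate 2 (0.0265) and without the deeper libraries (0.0379). S100a13 had a change of 0.17 ± 0.19 (adjusted p = 0.544).

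**Figure D5:**
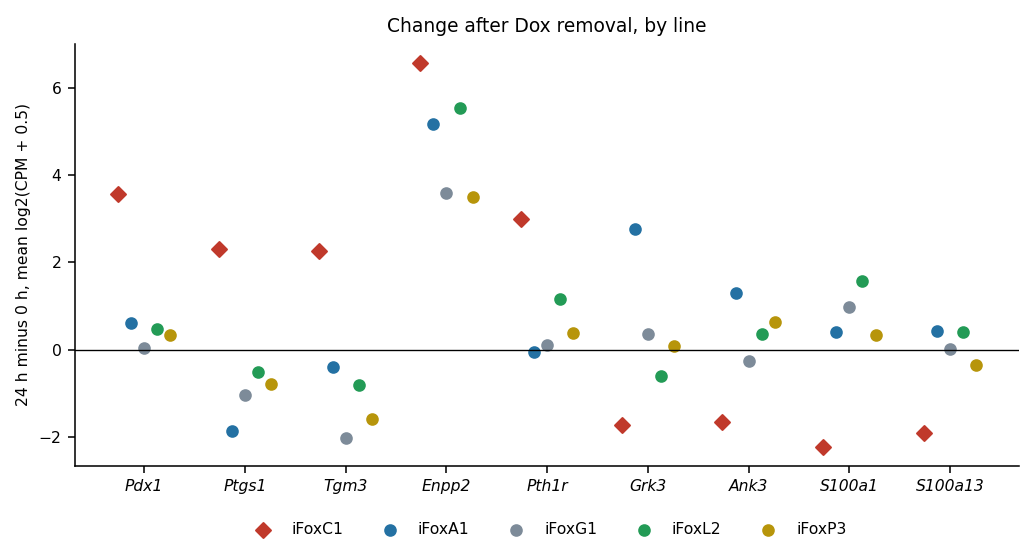
Change at 24 h relative to 0 h in each line (mean log2(CPM + 0.5) at 24 h minus that at 0 h), with diamonds for iFoxC1 and circles for the other lines. The iFoxC1 diamond lies above the circles of all 4 other lines for Pdx1, Ptgs1, Tgm3, Enpp2 and Pth1r and below them for Grk3, Ank3, S100a1 and S100a13. For Ptgs1, Tgm3 and S100a1 it lies on the other side of 0 from all 4 circles.

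The 4 other lines also differed among themselves at 24 h for 5 of the 9 genes, in a contrast that holds no iFoxC1 library. Over all genes, 10.9% passed this test. The iFoxC1 libraries still enter the shared estimate of the spread. The libraries compared had also been the other side of the comparison that chose the genes. These p-values are therefore a description too, and nothing is read from the share of members that passed. Grk3 (adjusted p = 0.000468) and Ank3 (adjusted p = 0.00201) were highest in iFoxA1, where Ank3 had 22.0, 22.8 and 32.3 CPM. Pth1r (adjusted p = 0.000897) and Tgm3 (adjusted p = 0.00152) were highest in iFoxA1 as well. Enpp2 (adjusted p = 0.00165) was highest in iFoxL2. These 5 calls held in all 17 fits without 1 library and in the 6 other settings. For Pdx1 (adjusted p = 0.574), Ptgs1 (0.807), S100a1 (0.0942) and S100a13 (0.141) a difference among these lines was not detected. S100a1 passed without iFoxA1 24 h replicate 3 (0.0257), with the replicate block (0.028), with the depth-set term (0.0473) and without the deeper libraries (0.00623), and S100a13 passed without iFoxL2 24 h replicate 1 (0.0448) or 2 (0.011) and without the deeper libraries (0.00155).

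In both depth sets iFoxC1 lay on the same side of the other lines at 24 h for 8 of the genes. The genes were picked on these same libraries, and each set holds 1 iFoxC1 library. For Pdx1, Ptgs1, Grk3 and Ank3, which had no overlap at 24 h, no other outcome was possible. Nothing is read from the match about the part of depth, which was not tested. Within the shallower and then the deeper 24 h libraries, the difference in log2(CPM + 0.5) between the single iFoxC1 library and the mean of the other lines' libraries (5 shallower, 4 deeper) was 2.82 and 3.39 for Pdx1, 1.83 and 1.74 for Ptgs1, -2.21 and -2.07 for Grk3 and -1.48 and -1.62 for Ank3. For Tgm3 it was 1.24 and 1.62, for Enpp2 1.24 and 1.38, for Pth1r 1.21 and 1.32 and for S100a1 -0.75 and -0.62. S100a13 was near 0 in both sets (0.01 and 0.13). At 0 h every library belonged to the shallower set.

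The promoter windows of the members were searched for core forkhead motifs. Of the 9 genes, 6 had windows in the RefSeq table, 8 windows in all. Searched on both strands, TGTTTAC was in 0 of the 8 and in 3.65% of all 32851 windows. The variant TGTTTGC was in 0 of the 8 and in 5.07% of all. The variant TGTTTAT was in 0 of the 8 and in 4.60% of all, and the variant TGTTTGT was in 0 of the 8 and in 6.61% of all. At least 1 of these 4 motifs was in 17.7% of all windows. The bases they share, TGTTT, were in 4 of the 8 windows, beside 50.5% of all. These letters were looked for in 300 bases only, and nothing follows from their absence about where FoxC1 binds.

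For each gene, the named protein-coding genes with the most similar pattern over the 17 libraries were found by the root mean square difference of mean-centred log2(CPM + 0.5), among 10890 candidates. Pdx1 was most like Tmem159 (0.422, beside a root mean square of 1.09 for Pdx1 around its own mean), followed by Sphk1 and Rtn4rl1. Tmem159 averaged 14.8 CPM in iFoxC1 at 24 h and at most 4.84 CPM in any other group. Ptgs1 was most like Serpinb9b (0.457), which had 7.24 CPM in iFoxC1 at 24 h, 1.36 to 3.03 CPM in the other lines at 24 h, 1.56 CPM in iFoxC1 at 0 h and 4.60 to 6.53 CPM in the other lines at 0 h. The nearest to Tgm3 was Cyp2b23 (0.526), to Pth1r Frmpd1 (0.486), to Grk3 Stat4 (0.571) and to Ank3 Pam (0.38). S100a1 was most like Prex1 (0.419), and S100a13 most like Mindy2 (0.278), which had 7.92 CPM in iFoxC1 at 0 h and 1.88 to 3.96 CPM in every other group. The nearest to Enpp2 was Adgrl2, at 0.989 beside a root mean square of 2.49 for Enpp2 around its own mean. For the rest, that value was 0.843 (Ptgs1), 0.901 (Tgm3), 1.09 (Pth1r), 1.38 (Grk3), 0.707 (Ank3), 0.722 (S100a1) and 0.573 (S100a13). Even the nearest genes thus matched these patterns only in part.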

How the data were processed

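The 9 genes, the gene lists and the rules were chosen with earlier results of these data known, and the contrasts between iFoxC1 and the other lines are the ones that chose the genes. Per the column names and the submitters' processing notes, which list Salmon 1.4.0, DESeq2 1.30.1 and mm10, the authors deposited estimated counts per transcript, not normalised, and a table of TPM; no label or header names the annotation used. Of 137271 transcripts, 137225 matched GENCODE M21 by identifier, and the 46 others, at most 0.0133% of a library, were left out. Counts were summed per gene symbol and rounded, filtered with filterByExpr by group, scaled by TMM and fitted with edgeR 4.0.16 (quasi-likelihood test, R 4.3.3) in 10 groups of line and time, leaving 7 residual degrees of freedom. Groups with 1 library were assumed to vary like the others. Benjamini-Hochberg adjustment ran over all 19796 genes tested, at a threshold of 0.05, and SE was derived from the F statistic. No label states that replicates came from separate cultures, so p-values measure only the spread between these libraries. Alternatives were DESeq2 1.42.0, its size factors, no filter, a replicate block, a term for the deeper libraries (over 30 M counts), their removal, and leaving out each library. The fit was tested on simulated counts. Named genes were the members, in each list up to 4 genes of smallest adjusted p at 24 h and any past the threshold, the 3 most similar genes to each member (mean of at least 5 CPM in a group) and the nearest neighbours; Tgm2 and Slc9a3r1 at 0 h were picked after their values were seen. The floor and the interval cover counting error only. Some genes that the rule names are not reported here.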

Additional observations from a re-analysis of the deposited data

Results flagged for a closer look

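For Ptgs1 and Tgm3 the change at 24 h relative to 0 h went one way in iFoxC1 and the other way in each of the 4 other lines. For Ptgs1 the change in iFoxC1 exceeded the mean change of the other lines by 4.33 on the log2 scale, and for Tgm3 by 4.32. Both were flagged because every 24 h library of iFoxC1 stood above its 0 h library while every 24 h library of the other lines stood below 0 h of the same line. These differences were not tested, since the genes were chosen for them, and each depends on 1 iFoxC1 library of 0 h, which held 13 counts of Ptgs1 and 16.1 estimated counts of Tgm3. Of all genes tested, 2.09% had the same arrangement.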

How the results depend on the processing

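Over all genes, the change in the 4 other lines called 6655 genes, the spread among them at 24 h 2166, iFoxC1 against them 731 at 24 h and 349 at 0 h, and the difference of changes 213. With DESeq2 the last 4 counts were 3657, 1349, 1028 and 1012, and the 24 h calls split into 688 higher and 661 lower, against 477 and 254 by edgeR. With a term for the deeper libraries they were 4082, 1661, 1299 and 1183. Without the deeper libraries, where only iFoxA1 kept replicates, all 5 counts rose, to 11925, 10552, 5191, 8356 and 6583. With no filter on low counts the 0 h count was 146 and the difference of changes 79. The cause of these shifts was not tested.

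With the replicate block the spread count was 3705, the 24 h count 1478, the 0 h count 1145 and the difference of changes 754. Same-numbered libraries deviated together among iFoxC1, iFoxG1, iFoxL2 and iFoxP3 at 24 h (correlations of 0.565 to 0.839), where replicate 2 is the deeper library in each line. They did not deviate together with those of iFoxA1 at 24 h or 0 h (-0.0241 to 0.0365), whose deeper library is replicate 3. Between iFoxA1 at 24 h and iFoxA1 at 0 h the correlation was 0.0536. The numbers were therefore not taken to pair the samples across all 5 lines.

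Leaving out 1 library at a time gave 5043 to 7754 genes for the change in the other lines, 1045 to 3995 for the spread, 98 to 1738 at 24 h (98 without iFoxC1 24 h replicate 2 and 173 without replicate 1), 121 to 1016 at 0 h and 8 to 1072 for the difference of changes. Without the iFoxC1 0 h library the last pair could not be computed. No member's value changed sign where the log2 difference was at least 1 in size, under any alternative. The alternatives refit the same libraries, on which the members were picked, so this is not independent support. On the TPM scale the differences of Grk3 (-1.29), Ank3 (-1.32) and Pdx1 (2.36) at 24 h kept their side, and Tgm3 was at 0.96. Depth limits Pdx1, Enpp2 and Pth1r at 0 h, where iFoxC1 had 0, 1 and 6 counts.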
